A study of Mus musculus with 8 samples.

Results

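RANK is the receptor through which osteoclast precursors read RANKL, and the transcripts of RANK and of the proteins that carry its signal from the membrane to the IKK complex were examined. The 10 genes were taken by name from the deposited gene tables: Tnfrsf11a, which encodes RANK, the adaptors Traf6, Traf2 and Traf3, the kinases Map3k14 and Map3k7, the TAK1 partner Tab2, and the IKK genes Chuk, Ikbkb and Ikbkg. All 10 were found among 21958 genes, and all 10 passed the filter on low counts in each experiment. Bulk RNA-seq was made from bone marrow-derived monocytes of C57BL/6 mice, kept in 50 ng/ml M-CSF, which sustains monocytes, and 100 ng/ml RANKL, which starts osteoclast differentiation. Every group received both cytokines. In the Arid1a experiment, 2 libraries labelled CONTROL were compared with 2 libraries of LysM-Cre;Arid1afl/fl cells (cKO), in which the lysozyme M promoter drives Cre in myeloid cells and part of Arid1a, a subunit of the BAF chromatin remodelling complex, is deleted. In the JQ1 experiment, 2 wild type control libraries were compared with 2 wild type libraries treated with JQ1, a small molecule that displaces BET proteins from acetylated chromatin. In the JQ1 table the libraries are named by codes, and which code means no JQ1 was inferred from the code alone, so its 2 libraries per group are called a and b, and the direction of each JQ1 comparison rests on that reading. The labels used here state no dose of JQ1 and no time after RANKL, and they do not say whether replicates were separate animals or cultures. The study's methods give a JQ1 dose for its inhibitor experiments, without naming these libraries. The study's legends call the libraries of the Arid1a experiment biologically independent, and no such statement was found for the JQ1 libraries, so there the p-values measure a spread that may be technical.

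When RANKL binds RANK, the receptor's cytoplasmic tail recruits TRAF proteins. TRAF6 builds ubiquitin chains that TAB2 recognises, the kinase TAK1 (Map3k7) is activated there, and TAK1 activates the IKK complex of IKKα (Chuk), IKKβ (Ikbkb) and the regulatory subunit NEMO (Ikbkg), which releases canonical NF-κB. A second arm runs through NIK (Map3k14): in resting cells TRAF3, TRAF2 and the cIAP ubiquitin ligases keep NIK protein low, and RANK engagement removes TRAF3, so that NIK and IKKα process p100 to p52. Most of this regulation acts on protein, and the data here are transcript levels only.

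The libraries held 15108239 to 17302136 counted reads. Each member had between 364 and 4160 reads in every library. Values are given as CPM, read counts scaled to a common library size by TMM, which corrects for library composition, and differences as log2 fold changes ± standard error from edgeR's quasi-likelihood test with Benjamini-Hochberg adjustment over all genes tested, called at an adjusted p under 0.05. Replicates of every group differed by more than counting noise. Their chi-square per degree of freedom was 16.9 in the Arid1a controls and 2.67 to 3.96 in the other groups, so the 2 Arid1a controls stood furthest apart. Arid1a itself had 2616 and 3554 reads in the controls and 2031 and 1888 in the cKO libraries (log2 fold change -0.65 ± 0.15, adjusted p = 0.00607). Because only part of the gene is deleted, gene-level reads are a weak check of the labels. Hexim1, a gene known to rise when BET proteins are displaced, was at 54.9 and 54.4 CPM in the JQ1 controls and at 106 and 111 CPM in the JQ1 libraries (0.99 ± 0.07, edgeR adjusted p = 3.35e-24). All 8 macrophage markers exceeded 1 CPM in all 4 groups. In each group 6 to 8 of 10 osteoclast markers and 7 to 9 of 10 neutrophil markers also did, so this bar does not identify the cells. The summed macrophage level was 12878 to 15271 CPM in Arid1a controls and 8546 to 8549 in cKO. It was 14845 to 15843 in JQ1 controls and 19482 to 20140 with JQ1. The lysozyme gene Lyz2 made up most of that sum, at 10577 to 12960 CPM in Arid1a controls, 4452 to 4533 in cKO, 12298 to 13357 in JQ1 controls and 16929 to 17388 with JQ1. Lyz2 encodes lysozyme M, whose promoter drives Cre in cKO, and the labels do not say whether CONTROL cells carry Cre. The part of the Cre allele in the lower Lyz2 level of cKO was not tested. By gene, 5 of the 8 markers were higher and 2 lower in cKO (median log2 fold change 0.43), and 3 were higher and 3 lower with JQ1 (median 0.03). Of 10 osteoclast markers, Calcr was at 0 in every library, and the summed level was 461 to 496 CPM in Arid1a controls, 260 to 270 in cKO, 223 to 237 in JQ1 controls and 122 to 134 with JQ1. In cKO, 1 of 8 tested was higher and 4 were lower (median log2 fold change -0.48). With JQ1, 1 of 7 was higher and 5 were lower (median -1.92). Mmp9 had 180 and 188 CPM in Arid1a controls and 19.1 and 18.5 in cKO, and Itgb3 rose in both experiments (2.19 ± 0.37 and 0.53 ± 0.14). Over all genes tested, 18.1% were higher and 16.3% lower after Arid1a loss, and 19.3% and 20.5% after JQ1. Neutrophil markers summed to 144 to 151 CPM in Arid1a controls, 248 to 273 in cKO, 91.0 to 91.3 in JQ1 controls and 36.4 to 36.9 with JQ1, with 8 of 9 tested higher in cKO and 6 of 9 lower with JQ1, while the defining marker Ly6g was at 0 in 7 libraries and at 0.124 CPM in 1 cKO library. Mmp8 made up most of the neutrophil sum in Arid1a controls, at 115 and 130 CPM. It was not called in cKO (0.11 ± 0.10, edgeR adjusted p = 0.426) and fell by 1.86 ± 0.11 with JQ1. B cell and erythroid markers were too low to test. Few genes of the remaining marker lists were tested. In cKO those called were Gata2 (mast cell and basophil, log2 fold change 2.38), Itgax (dendritic cell, 0.94) and Runx2 (stromal and osteoblast, -1.34). With JQ1 they were Itgax (-1.10), the stromal genes Col1a1 (-1.20), Col1a2 (-0.90) and Pdgfrb (-1.62), and the megakaryocyte marker Pf4 (-0.49). The part of these markers in the changes of the 10 genes was not tested, and in bulk RNA fewer cells of a type and less RNA per cell cannot be told apart.

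Promoters are shown of the 3 genes that rose after Arid1a loss, to set their sequences side by side. RefSeq promoter windows (250 bases before the annotated start, from the table of build GRCm38.p6) were matched by symbol for 9 of the 10 genes, 13 windows in all, with none for Ikbkb. The windows shown here were located in GRCm39 by exact match, each at 1 place. Windows are printed 5′ to 3′ on the gene's strand, up to the first 30 bases of annotated coding-gene exon, with GC boxes (GGGCGG or its reverse complement) and NF-κB consensus matches in capitals.
Tnfrsf11a, chr1:105708198-105708387, + strand: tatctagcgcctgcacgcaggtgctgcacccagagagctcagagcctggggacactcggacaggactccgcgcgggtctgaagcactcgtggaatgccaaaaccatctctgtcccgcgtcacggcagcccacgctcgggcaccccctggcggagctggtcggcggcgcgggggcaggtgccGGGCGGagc
Traf3, chr12:111132554-111132803, + strand: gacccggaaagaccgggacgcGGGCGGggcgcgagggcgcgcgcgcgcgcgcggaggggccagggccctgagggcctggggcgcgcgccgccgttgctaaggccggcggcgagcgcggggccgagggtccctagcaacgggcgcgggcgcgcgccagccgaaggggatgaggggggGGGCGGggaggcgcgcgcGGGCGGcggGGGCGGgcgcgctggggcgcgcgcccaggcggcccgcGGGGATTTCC
Map3k14, chr11:103158269-103158477, - strand: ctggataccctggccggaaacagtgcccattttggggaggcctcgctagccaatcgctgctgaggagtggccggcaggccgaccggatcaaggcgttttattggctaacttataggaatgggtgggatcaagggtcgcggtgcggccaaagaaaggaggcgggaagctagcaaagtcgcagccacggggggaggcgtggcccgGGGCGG
The complete windows of these genes were rich in G and C, at 73.6% for Tnfrsf11a, 85.2% for Traf3 and 65.2% for Map3k14, against a median of 52.4% over 32851 RefSeq promoter windows of the same length. They held 31, 49 and 19 CpG pairs, against a median of 6. Windows of members not called after Arid1a loss varied. The first window of Tab2 had 76.8% and 33 CpG pairs, Map3k7 68% and 28, and Traf2 60.8% and 19. Lower were Traf6 at 56.4% and 13, Chuk at 47.6% and 13, and the second window of Tab2 at 39.6% and 2. G and C content thus did not separate the 3 genes from Tab2 and Map3k7, and no test was made. A GC box, the letters bound by SP1-family factors, occurred on either strand in 8 of the 13 windows and in 32.7% of all windows, with 4 copies each at Tnfrsf11a, of which 1 is in the stretch shown, and Traf3, and 1 at Map3k14. The NF-κB consensus matched in 7.25% of all windows and at Traf3 and Map3k7 among the 10 genes. The match at Traf3, GGGGATTTCC, is the last 10 bases before the RefSeq start. In the GENCODE vM39 annotation Traf3 starts at 111132776, and the last 28 bases of the window, with this match, are exon. That consensus replaced a narrower form that had been searched first and did not match at Traf3. The AP-1 letters TGANTCA (6.75%) were found in 3 of the 4 Ikbkg windows, and neither the PU.1 letters GAGGAAGT (2.44%) nor the interferon response element (2.98%) matched in any of the 13 windows. Of the 4 Ikbkg windows, the first was placed on the genome and is not shown because all 250 of its bases lie in exons of Ikbkg or of the neighbouring gene Fam3a on the opposite strand. The other 3 are not shown either. A match describes letters and not binding.

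Compared per length, as FPKM (reads scaled by gene length and library total, deposited for the Arid1a experiment and computed in the same way for JQ1), Tab2 had the highest level of the 10 genes in all 4 groups, from 25.8 ± 0.590 in JQ1 controls to 40.7 ± 0.540 in cKO (mean ± SD, n = 2). Tnfrsf11a was next in the Arid1a experiment, at 26.5 ± 2.38 FPKM in controls and 36.7 ± 1.24 in cKO, followed by Traf3 at 20.3 ± 2.65 and 28.3 ± 0.380. In the JQ1 controls Tnfrsf11a was lower in the order, at 14.6 ± 0.0273 FPKM, behind Traf3 at 17.6 ± 1.39 and Chuk at 14.9 ± 0.388, and its mean lay within 1 SD of that of Chuk. Among the adaptors Traf6, the one most tied to RANK signalling, was the lowest in every group, at 6.41 ± 0.0517 FPKM in Arid1a controls and 5.78 ± 0.512 in JQ1 controls, below Traf2 at 10.4 ± 0.126 and 8.93 ± 0.355. Map3k14 was the lowest of all 10 in 3 groups, between 3.76 ± 0.247 FPKM in JQ1 controls and 4.75 ± 0.314 with JQ1, but not in cKO, where it reached 9.12 ± 0.598 and Ikbkg was lowest at 5.13 ± 0.0839. Neighbours whose means lay within their summed SDs were Ikbkg and Ikbkb in the Arid1a controls, Traf2 and Map3k14 in cKO, Chuk with Tnfrsf11a and Ikbkg with Traf2 in the JQ1 controls, and Traf2 with Ikbkg in the JQ1 libraries. The order of the genes rests on the deposited lengths, which run from 5087 bases for Chuk to 19078 for Ikbkb. The experiments were separate, so the higher Tnfrsf11a level of the Arid1a controls (155 ± 12.6 CPM) than of the JQ1 controls (86.0 ± 0.562 CPM) was not tested.

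**Figure D1:**
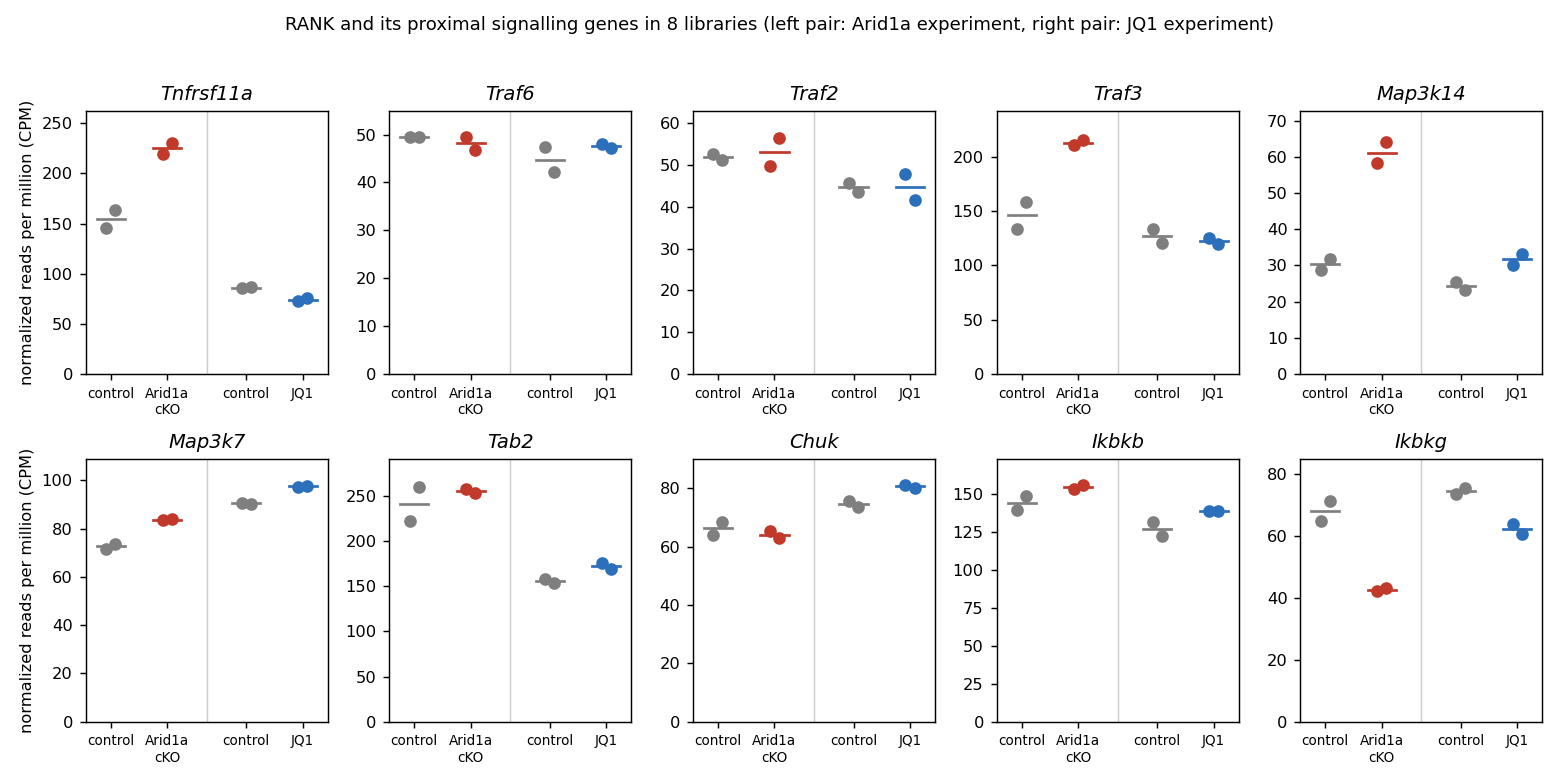
Level of each of the 10 genes in CPM (y axis, from 0) in the 8 libraries, with points for libraries and bars for the mean of the 2 libraries of a group. Tnfrsf11a, Traf3 and Map3k14 lie above their controls in cKO, and Ikbkg lies below its controls in both experiments.

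The receptor transcript moved in opposite directions in the 2 experiments. Tnfrsf11a had 146 and 164 CPM in the Arid1a controls and 219 and 231 CPM in cKO. The groups did not overlap, and the gene was 1.45-fold higher in cKO (log2 fold change 0.54 ± 0.09, 95% interval 0.33 to 0.75, adjusted p = 0.00155). In the JQ1 experiment it had 85.6 and 86.4 CPM in controls and 72.4 and 75.5 CPM with JQ1. Here too the groups did not overlap, with the treated libraries below (log2 fold change -0.22 ± 0.07, 95% interval -0.36 to -0.08, edgeR adjusted p = 0.0100). The fall under JQ1 lost its call without JQ1 library a (adjusted p = 0.128) and in a fit over all 8 libraries (adjusted p = 0.0609). The response to Arid1a loss exceeded the response to JQ1 by 0.75 ± 0.11 (95% interval 0.52 to 0.99, edgeR adjusted p = 9.56e-05, interaction over 8 libraries). In the list of the ligand Tnfsf11, the decoy receptor gene Tnfrsf11b and the other RANKL receptor gene Lgr4, only Lgr4 passed the filter, and the 3 genes together reached 0.579 to 1.80 CPM in any library. Lgr4 had 11 and 7 reads in Arid1a controls and 20 and 20 in cKO (1.15 ± 0.50, adjusted p = 0.0999), and 9 and 9 reads in JQ1 controls and 26 and 29 with JQ1, where it rose (1.59 ± 0.51, edgeR adjusted p = 0.00784).

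Of the adaptors, Traf3 rose after Arid1a loss and Traf6 and Traf2 passed the test in neither experiment. Traf3, whose protein restrains NIK, had 134 and 159 CPM in the Arid1a controls and 211 and 215 CPM in cKO. Both cKO libraries lay above both controls, a 1.46-fold difference (0.54 ± 0.10, 95% interval 0.32 to 0.77, adjusted p = 0.00235). With JQ1 its groups overlapped, at 133 and 120 CPM in controls and 125 and 119 CPM in treated libraries (-0.05 ± 0.06, 95% interval -0.18 to 0.08, edgeR adjusted p = 0.561). The difference between the responses was 0.59 ± 0.12 (95% interval 0.33 to 0.85, adjusted p = 0.00194). Traf6 had 49.5 and 49.4 CPM in Arid1a controls and 49.6 and 46.8 CPM in cKO, and the interval of its change ran from -0.27 to 0.20. With JQ1 the interval for Traf6 ran from -0.09 to 0.26, around values of 47.4 and 42.1 CPM in controls and 48.0 and 47.2 CPM with JQ1. For Traf2, which works with TRAF3 on NIK, the interval ran from -0.21 to 0.28 after Arid1a loss and from -0.18 to 0.18 after JQ1. These intervals leave room for changes of up to about that size in either direction.

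At the kinase step, Map3k14 rose in both experiments and gave the largest change of the 10 genes. It had 28.8 and 31.7 CPM in the Arid1a controls and 58.2 and 64.0 CPM in cKO. The groups stood well apart, at a fold of 2.02 (log2 fold change 1.01 ± 0.11, 95% interval 0.76 to 1.27, edgeR adjusted p = 8.41e-05), and 10.1% of the genes tested changed by more in size. With JQ1 it went from 25.3 and 23.2 CPM to 30.2 and 33.2 CPM. These groups did not overlap either, at 1.31-fold (0.39 ± 0.11, 95% interval 0.18 to 0.60, adjusted p = 0.00187), but the call was lost without JQ1 library b (adjusted p = 0.0701). The rise after Arid1a loss was larger by 0.62 ± 0.15 (95% interval 0.31 to 0.94, edgeR adjusted p = 0.00546). Map3k7, which encodes TAK1, had 71.7 and 73.6 CPM in Arid1a controls, 83.4 and 83.8 CPM in cKO, 90.6 and 90.2 CPM in JQ1 controls and 97.4 and 97.7 CPM with JQ1. Its treated libraries lay above their controls in both experiments without passing the test (0.20 ± 0.10, adjusted p = 0.138, and 0.11 ± 0.07, adjusted p = 0.197). Tab2 had 158 and 154 CPM in JQ1 controls and 176 and 169 CPM with JQ1 (0.15 ± 0.06, edgeR adjusted p = 0.0345), and 223 and 260 CPM in Arid1a controls against 257 and 253 CPM in cKO (0.08 ± 0.10, adjusted p = 0.538). The Tab2 call under JQ1 was the least stable, passing in 4 of 13 alternatives.

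**Figure D2:**
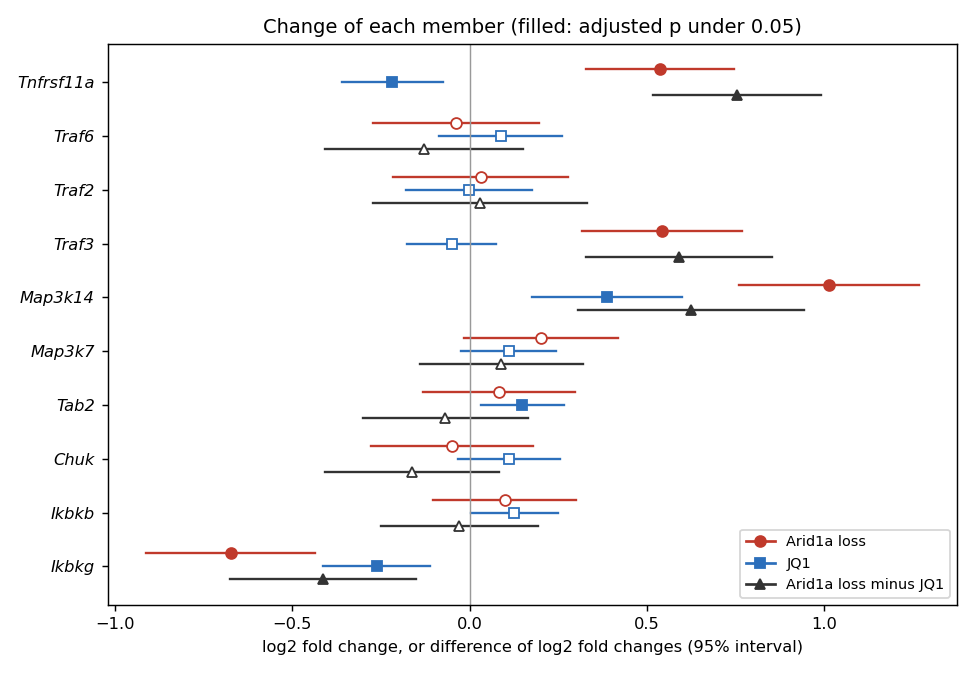
Log2 fold change of each of the 10 genes (x axis) after Arid1a loss (circles) and JQ1 (squares), and the difference of these changes (triangles), with 95% intervals and filled symbols for an adjusted p under 0.05. Map3k14 rose in both, Ikbkg fell in both, and Tnfrsf11a lies to the right of 0 after Arid1a loss (0.54) and to the left after JQ1 (-0.22).

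Within the IKK complex the regulatory subunit fell in both experiments, and the kinase subunits did not pass the test in either. Ikbkg had 64.7 and 71.2 CPM in the Arid1a controls and 42.0 and 43.1 CPM in cKO. No cKO library reached a control, and the level in cKO was 0.627 of that in controls (log2 fold change -0.67 ± 0.11, 95% interval -0.91 to -0.43, adjusted p = 0.000840). In the JQ1 experiment it had 73.3 and 75.5 CPM in controls and 63.7 and 60.4 CPM with JQ1. The treated level was 0.834 of the control level (-0.26 ± 0.08, 95% interval -0.41 to -0.11, edgeR adjusted p = 0.00314), a call lost without JQ1 library b (adjusted p = 0.0814). The fall was deeper after Arid1a loss by -0.41 ± 0.12 (adjusted p = 0.0201), and this difference missed the threshold without any 1 of 5 libraries, the 2 cKO, the 2 JQ1 control and JQ1 library a (adjusted p from 0.0515 to 0.0913). Chuk had 64.1 and 68.6 CPM in Arid1a controls, 65.4 and 62.9 CPM in cKO, 75.8 and 73.6 CPM in JQ1 controls and 81.1 and 80.3 CPM with JQ1. Its changes were -0.05 ± 0.10 (adjusted p = 0.751) and 0.11 ± 0.07 (adjusted p = 0.222). Ikbkb had 140 and 149 CPM in Arid1a controls, 153 and 156 CPM in cKO, 132 and 123 CPM in JQ1 controls and 139 and 139 CPM with JQ1. Both of its changes were small and above 0, at 0.10 ± 0.09 (adjusted p = 0.427) and 0.13 ± 0.06 (edgeR adjusted p = 0.0964).

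Ikbkg shares exon sequence with neighbours, and the strand setting of the counting is not given in the sources used here. In the GENCODE vM39 annotation 5.34% of its exon bases overlap G6pdx (526 bases) or Fam3a (204 bases), both on the opposite strand. G6pdx changed by 0.32 (adjusted p = 0.0124) after Arid1a loss and by 0.35 (edgeR adjusted p = 4.41e-09) after JQ1, both opposite in sign to Ikbkg. Fam3a was at 0.33 (adjusted p = 0.0668) after Arid1a loss and fell by 0.31 (edgeR adjusted p = 0.0372) after JQ1. For Map3k14, 8.78% of exon bases overlap the non-coding genes Gm34823 (462 bases, opposite strand) and 1700028N14Rik (135 bases, same strand), neither of which passed the filter. With both strands counted, 5.54% of its 75-base stretches also occur in transcripts of another gene. They were most shared with Gm34823, so this share is not separate from the overlap. Ikbkb overlaps Gm64296 over 2.13% of its exon bases, and the other 7 genes overlap none.

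Over the 10 genes, 3 were called higher and 1 lower after Arid1a loss, where 18.1% of the 11319 genes tested were higher and 16.3% lower, 34.4% in all. JQ1 called 2 higher and 2 lower, against 19.3% and 20.5% of 11352 genes, 39.8% in all. These backgrounds shifted with the scaling. Changing TMM to upper-quartile factors alone moved them from 2047 higher and 1845 lower to 1800 and 2300 after Arid1a loss, and from 2188 and 2328 to 2026 and 2502 after JQ1. Limma-trend on FPKM, which changed the test, the filter and the scaling together, gave 1603 and 2256 after Arid1a loss and 1266 and 2305 after JQ1. Groups did not overlap for 6 genes after Arid1a loss (background 69.2%) and for 7 after JQ1 (background 68.4%). The difference between the responses was called for 4 genes, against 28.3% of 11767 genes. Each share of the 10 was near its background, so the number of calls does not set these genes apart. Their median log2 fold change was 0.09 after Arid1a loss and 0.10 after JQ1, beside -0.00 and 0.00 over all genes tested, and the median difference was 0.00 beside -0.02. The 4 calls after Arid1a loss passed in every alternative fit that kept all libraries. Leaving out 1 library gave changes of 0.45 to 0.62 for Tnfrsf11a and 0.42 to 0.67 for Traf3. For Map3k14 they were 0.94 to 1.08, and for Ikbkg -0.75 to -0.60. All these fits share the same libraries, and leaving 1 out leaves a group with 1 library, so they are not replication. Leaving out control 2 raised the count to 7 genes by adding Map3k7, Tab2 and Ikbkb, and raised the count over all genes from 3892 to 6083, while leaving out either cKO library gave 2235.

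Ratios of FPKM within a library do not depend on library scaling. Their size depends on the deposited gene lengths, so they are read here between groups and not as amounts of 1 partner against another. Ikbkg over Chuk was 0.633 and 0.651 in Arid1a controls and 0.403 and 0.430 in cKO, and 0.607 and 0.644 in JQ1 controls and 0.493 and 0.472 with JQ1. The NEMO transcript was thus lower relative to IKKα in all 4 treated libraries than in any control. Ikbkg over Ikbkb was 1.09 and 1.12 in Arid1a controls and 0.645 and 0.650 in cKO, and 1.31 and 1.45 in JQ1 controls and 1.08 and 1.02 with JQ1. Chuk over Ikbkb, the ratio of the 2 kinase subunits, lay between 1.51 and 1.73 in the Arid1a experiment and between 2.15 and 2.25 in the JQ1 experiment. A value above 1 rests on the deposited lengths, 5087 bases for Chuk and 19078 for Ikbkb. Without length, Ikbkb was above Chuk, at means of 144 and 66.3 CPM in Arid1a controls. In the NIK arm, Map3k14 over Traf3 was 0.242 and 0.224 in Arid1a controls and 0.310 and 0.334 in cKO, and 0.213 and 0.217 in JQ1 controls and 0.270 and 0.312 with JQ1. The kinase transcript was higher relative to that of its inhibitor in all 4 treated libraries than in any control, although Traf3 rose in the first and was not called in the second. Map3k14 over Chuk, the kinase against its substrate kinase, was 0.349 and 0.359 in Arid1a controls and 0.691 and 0.791 in cKO. Tnfrsf11a over Traf6, receptor against adaptor, was 3.89 and 4.36 in Arid1a controls, 5.82 and 6.49 in cKO, 2.38 and 2.70 in JQ1 controls and 1.99 and 2.11 with JQ1. These ratios are given as values, with no test.

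**Figure D3:**
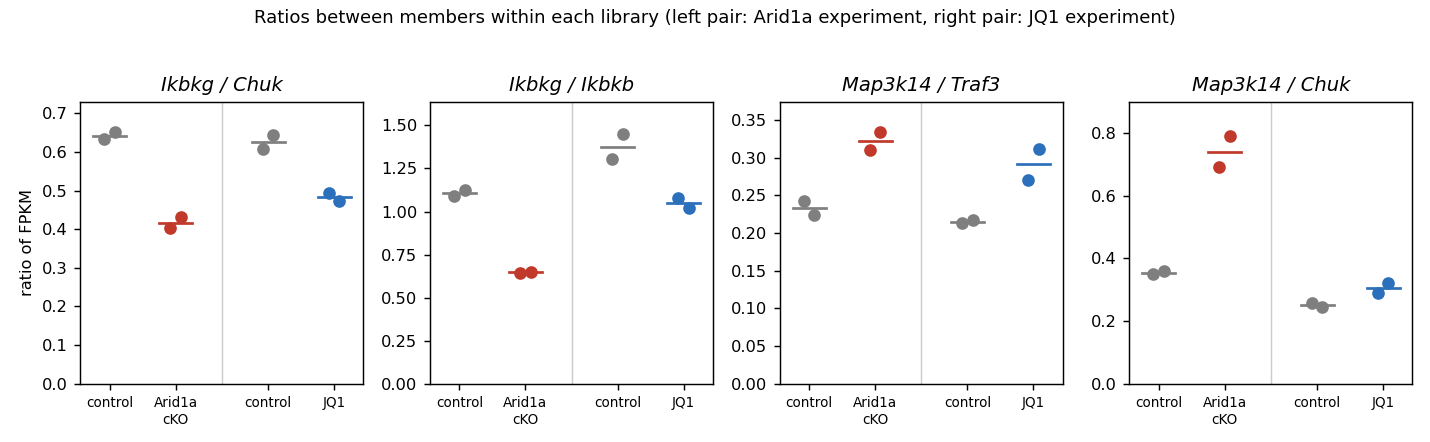
Ratio of FPKM between pairs of genes within each library (y axis, from 0), with points for libraries and bars for the mean of the 2 libraries of a group. Ikbkg lies lower against Chuk and Ikbkb, and Map3k14 higher against Traf3 and Chuk, in cKO and JQ1 libraries than in their controls.

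Beyond the 10 genes, other parts of the pathway were read from lists chosen for their roles. Of 15 negative regulators of RANK or NF-κB signalling, 8 rose and 0 fell after Arid1a loss (median 0.28 over the 15, beside -0.00 over all genes), and 1 rose and 4 fell after JQ1 (median -0.00). Over all genes tested, 18.1% were higher and 16.3% lower after Arid1a loss, and 19.3% and 20.5% after JQ1. Rnf114, a ubiquitin ligase, rose by 0.85 ± 0.10 after Arid1a loss (edgeR adjusted p = 0.000117) and fell by 0.46 ± 0.07 after JQ1 (adjusted p = 2.12e-08). Birc2, which encodes the cIAP1 ligase that acts with TRAF2 and TRAF3 on NIK, rose by 0.68 ± 0.14 after Arid1a loss (adjusted p = 0.00371). Tank rose by 0.35 ± 0.09 (adjusted p = 0.0105) and Cbl, a ligase that acts downstream of RANK and SRC, by 0.65 ± 0.16 (edgeR adjusted p = 0.0115). The Arid1a controls stood far apart for Cbl, at 114 and 178 CPM against 230 and 229 CPM in cKO, so the size of its rise depends on the control. After JQ1, Cblb, a related ligase, fell by 1.03 ± 0.07 (adjusted p = 1.15e-28), Tnfaip3, which encodes the deubiquitinase A20, fell by 0.45 ± 0.07 (adjusted p = 2.58e-07), and Cbl rose by 0.28 ± 0.07 (edgeR adjusted p = 0.000801). The summed level of the 15 was 1563 to 1650 CPM in Arid1a controls and 1988 to 2020 CPM in cKO, and 1485 to 1497 CPM in JQ1 controls and 1395 to 1436 CPM with JQ1. The summed level of the neutrophil markers described above moved in the same directions as this sum, and their part in these changes was not tested.

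The partners of the receptor adaptors, 17 of 18 tested, split in direction. The shares over all genes tested were 18.1% higher and 16.3% lower after Arid1a loss, and 19.3% and 20.5% after JQ1. After Arid1a loss 5 rose and 3 fell (median -0.07), led by the scaffold gene Sqstm1 (p62) at 0.52 ± 0.08 (edgeR adjusted p = 0.000752), the kinase Src at -0.71 ± 0.12 (adjusted p = 0.000956), Tifa, a TRAF6-binding protein, at 0.78 ± 0.14 (adjusted p = 0.00148) and Rack1 at -0.53 ± 0.09 (adjusted p = 0.00158). After JQ1 1 rose and 3 fell (median 0.01). Src, which RANK engages to organise the resorbing cytoskeleton, fell by 1.87 ± 0.22 (edgeR adjusted p = 6.64e-13), Traf1 by 1.04 ± 0.07 (adjusted p = 2.83e-25) and Rack1 by 0.17 ± 0.05 (adjusted p = 0.00361), while Gab2, an adaptor bound to RANK, rose by 0.19 ± 0.07 (edgeR adjusted p = 0.0196). Of the linear ubiquitin ligase genes, which modify NEMO, Rnf31 rose by 0.59 ± 0.10 after Arid1a loss (adjusted p = 0.00150) and Rbck1 fell by 0.19 ± 0.08 after JQ1 (edgeR adjusted p = 0.0390), each 1 of 3 tested.

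Among 10 genes of NF-κB subunits and their regulators, 5 rose and 0 fell after Arid1a loss (median 0.25), where 18.1% of all genes tested were higher and 16.3% lower. Of the neutrophil markers, 8 of 9 tested also rose, and their part in this count was not tested. The regulator genes Nfkbiz and Nfkbie rose by 0.57 ± 0.12 (edgeR adjusted p = 0.00518) and 0.41 ± 0.10 (adjusted p = 0.00803), and the subunit genes Nfkb1 and Rel by 0.36 ± 0.09 (adjusted p = 0.0118) and 0.44 ± 0.12 (adjusted p = 0.0194). After JQ1 2 rose and 1 fell (median 0.01), against 19.3% and 20.5% of all genes tested: Nfkbie at 0.35 ± 0.08 (adjusted p = 0.000253), Rel at 0.33 ± 0.08 (edgeR adjusted p = 0.000583) and Bcl3, a nuclear partner of p50 and p52, at -0.70 ± 0.15 (adjusted p = 3.01e-05). Relb, the partner of p52 in the NIK arm, was at 0.08 ± 0.11 and 0.01 ± 0.10, with edgeR adjusted p of 0.608 and 0.970.

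**Figure D4:**
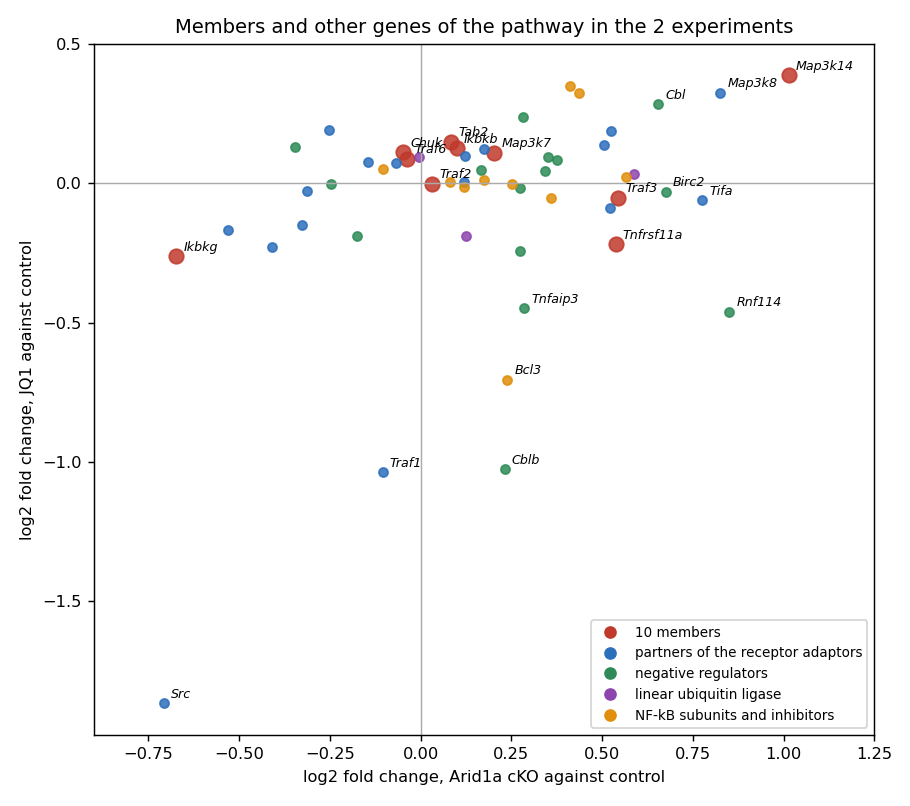
Log2 fold change after JQ1 (y axis) against that after Arid1a loss (x axis) for the 10 genes and the tested genes of 4 pathway lists, 1 point per gene. Map3k14 lies in the upper right (1.01 and 0.39), Ikbkg in the lower left (-0.67 and -0.26) and Tnfrsf11a in the lower right (0.54 and -0.22).

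The genes whose profile was most like that of Tnfrsf11a over the 8 libraries, each centred within its experiment, were Cd109 (r = 0.995), Cflar (r = 0.993), Dock8 (r = 0.991), Txlnb and Cep250 (r = 0.989 each), of 9436 candidates with a mean of at least 5 CPM. All 5 had fitted log2 fold changes above 0 after Arid1a loss and below 0 after JQ1, from 1.83 and -0.92 for Cd109 to 0.51 and -0.19 for Cep250. For Map3k14 they were Pxn (r = 0.999), Gpr107 (r = 0.997), Arhgef2 (r = 0.997), Kat2b (r = 0.996) and Sorl1 (r = 0.995), with fitted values from 0.31 and 0.12 for Arhgef2 to 1.19 and 0.46 for Sorl1. The libraries form 4 groups of 2, so a likeness here says that the 2 group differences stand in a similar ratio, and no test was made.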

How the data were processed

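Per the labels and the study's methods, the authors used cutadapt for trimming, HISAT2 for alignment to GRCm39 and HTSeq to count reads on each gene. The deposited tables, 1 per experiment, hold raw counts as whole numbers and FPKM, for which the authors divided these counts by gene length and library total. The 4 FPKM columns of the JQ1 table carry codes only and were not used, and FPKM for JQ1 was computed from its counts. The Ensembl release and the strand setting are not given in the sources used. Library totals were 15108239 to 17302136 reads, over 21958 genes.

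Each experiment was fitted alone: filterByExpr, TMM scaling and the robust quasi-likelihood F test of edgeR 4.0.16 (R 4.3.3), with Benjamini-Hochberg adjustment over all genes tested. The difference between the responses was an interaction in 1 fit over 8 libraries. Standard errors were taken from the change and its F value, as size over root F. The biological coefficient of variation was 0.0874 (Arid1a experiment), 0.0470 (JQ1) and 0.0704 (8 libraries). In data simulated at these library sizes, changes of log2 size 0.5 were recovered in 54.5% of cases for the Arid1a comparison (11283 genes). For JQ1 the share was 86.4% (11322 genes). Changes of size 1 were recovered in 92.5% and 92.4%, and in 82% for the difference (11562 genes). The simulation gave all genes and groups of a comparison the same coefficient of variation and changed few genes. In the data the Arid1a controls varied more than cKO (chi-square per degree of freedom 16.9 against 2.67), and many genes were called. These shares therefore do not give the recovery in the data.

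The members, the gene lists and the tests were chosen with earlier results of these data known. Named genes were the 10 members, Arid1a and Hexim1, up to 4 tested genes of each list by smallest p in each experiment, the 5 genes most like Tnfrsf11a or Map3k14, and the genes that overlap a member. Relb, Ly6g, Calcr, and the neighbours of the promoters were named after their values were seen. Nothing in the labels links equal replicate numbers of different groups, so the reported fits were unpaired. Alternatives were DESeq2 1.42.0, limma-voom and limma-trend on FPKM (limma 3.58.1, pseudocount 0.5, at least 0.5 FPKM in 2 libraries), RLE and upper-quartile factors, no filter, at least 1 CPM in every library, a replicate block, leaving out each library, 1 fit over 8 libraries and a fold of at least 2. Exon overlaps and shared 75-base stretches came from GENCODE vM39, and promoters from RefSeq.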

Additional observations from a re-analysis of the deposited data

Results flagged for a closer look

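For 4 genes the response to Arid1a loss differed from the response to JQ1 by the interaction test over 8 libraries. Given as the first log2 fold change minus the second, the differences were 0.75 for Tnfrsf11a (0.54 against -0.22, edgeR adjusted p = 9.56e-05), 0.59 for Traf3 (0.54 against -0.05, adjusted p = 0.00194), 0.62 for Map3k14 (1.01 against 0.39, adjusted p = 0.00546) and -0.41 for Ikbkg (-0.67 against -0.26, adjusted p = 0.0201). The experiments had separate controls, so experiment and perturbation cannot be told apart in the size of these differences.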

How the results depend on the processing

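Each group held 2 libraries, and how far depth limits the calls was not tested. After Arid1a loss, Tnfrsf11a, Traf3, Map3k14 and Ikbkg passed in 13 of 13 alternatives. After JQ1, Map3k14 and Ikbkg passed in 12 of 13, Tnfrsf11a in 11 and Tab2 in 4. For the difference, Tnfrsf11a, Traf3 and Map3k14 passed in 15 of 15 and Ikbkg in 10. Where a call was lost, the cause was not tested.

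With a fold of at least 2, the genes called over all genes were 1002 after Arid1a loss, 793 after JQ1 and 1213 for the difference, with 1, 0 and 0 members. The fit over 8 libraries called 2973 genes and 2 members after JQ1. Leaving out 1 library gave 2235 to 6083 genes and 4 to 7 members after Arid1a loss, 3251 to 3915 genes and 1 to 5 members after JQ1, and 2214 to 4965 genes for the difference. Members that had not passed changed sign in some settings. Traf2 was at -0.031 after Arid1a loss with upper-quartile factors and at -0.034 on FPKM, at 0.0099 after JQ1 without a filter and at 0.00061 in the fit over 8 libraries, and at -0.025 and -0.00031 for the difference with upper-quartile factors and without a filter. Leaving out 1 library gave, after Arid1a loss, -0.065 to 0.121 for Traf2, -0.027 to 0.198 for Tab2, -0.101 to 0.00080 for Chuk and -0.079 to 0.0018 for Traf6, after JQ1 -0.101 to 0.104 for Traf2 and -0.126 to 0.031 for Traf3, and for the difference -0.075 to 0.133 for Traf2, -0.177 to 0.043 for Tab2 and -0.083 to 0.020 for Ikbkb. With upper-quartile factors, where only the scaling differs, 43.9% of calls were higher after Arid1a loss and 44.7% after JQ1, against 52.6% and 48.4% with TMM, and the median of all genes moved to -0.06 and -0.01. With limma-trend on FPKM, which differs by test, filter and scaling together, the shares were 41.5% and 35.5% and the medians -0.06 and -0.04.

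With the replicate number as a block, 4400 genes and 4 members were called after Arid1a loss, 4129 genes and 3 members after JQ1, where Tab2 was lost (adjusted p = 0.0791), and 3330 genes and 4 members for the difference. The deviations of same-numbered libraries correlated at 0.02 and -0.04, so the numbers were not taken to pair the libraries.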
